A study of Mus musculus with 16 samples.

Results

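The cells described here were fibroblasts of the mouse thoracic aorta that held RNA of at least 2 of the genes Tnfrsf11b, Dio2, Hhip and Epha3. A cell counted as a fibroblast when it held at least 5 unique molecular identifiers (UMIs, 1 per captured RNA molecule) of Dcn, which encodes the matrix proteoglycan decorin, and more of Dcn than of the smooth muscle gene Myh11. Of 66349 deposited barcodes, 50858 passed the cell filters, 36066 of those were fibroblasts, and 6650 were selected by the 4 genes. The selected fibroblasts made up 18.4% of all fibroblasts and 13.1% of all kept cells. The other 29416 fibroblasts of the same libraries served as the comparison.

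The 16 libraries were made with droplet single-cell RNA sequencing, each from the thoracic aorta of 1 mouse of the 129S6/SvEv strain, dissected from the root to the arch. All mice carried Myh11-CreER, a tamoxifen-inducible Cre driven by a smooth muscle promoter, and all received tamoxifen at 2 mg per day for 5 days from 6 weeks of age. Smad3SmKO mice also carried Smad3 flox/flox, so the deletion was aimed at vascular smooth muscle cells (VSMCs) and not at fibroblasts, whereas Smad3+/+ mice had the unmodified gene. The 18 week time point, counted from deletion, had 5 Smad3+/+ libraries and 7 labelled Smad3SmKO, and the 10 week time point had 2 of each. The labels gave 6 batches and a tissue digestion of 30 or 60 min. Batch 4 held all 10 week libraries, and batch 5 held 2 libraries, both labelled Smad3SmKO.

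Library totals ranged from 12539539 to 52843031 UMIs, and at most 11 barcodes were shared by any pair of libraries. Smad3 RNA was not lower under the Smad3SmKO label in the cells that the Cre targets. In VSMCs at 18 weeks it stood at 7.44 ± 2.79 CPM (counts scaled to the same total in every library and class, SD, n = 5) in Smad3+/+ and 9.32 ± 4.37 (n = 7) under Smad3SmKO. Reads count the 3' end of a transcript and need not show a deletion further upstream. This level thus checks neither label, and the libraries are called labelled Smad3SmKO. The study itself reported significantly less Smad3 RNA (qPCR, relative to Myh11) and protein (immunoblot) in aortas of Smad3SmKO mice. RNA of the GFP tracer did not follow its label in 4 libraries: it was at 0 in replicates 4 and 5 of Smad3+/+ at 18 weeks, which the labels give a Myh11-GFP tracer, and present in both 10 week Smad3SmKO libraries, which the labels give none. Results were therefore also computed without those 4 libraries.

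Of the 4 genes used for selection, Tnfrsf11b encodes osteoprotegerin, a secreted decoy receptor that binds RANK ligand and TRAIL, and Dio2 encodes the deiodinase that turns the thyroid prohormone into its active form inside the cell. Hhip encodes a membrane protein that binds and sequesters hedgehog ligands and is itself induced by hedgehog signalling, while Epha3 encodes a receptor tyrosine kinase for ephrin-A ligands. Aortic fibroblasts lie mainly in the adventitia, where they make collagen, elastic fibre proteins and proteoglycans.

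For 3 of these 4 genes a start site was matched in the RefSeq promoter set used, and Tnfrsf11b was not matched there. The 250 bases before each start site are shown because the genes were selected together and their promoters can be compared. Capitals mark matches to the motifs searched on both strands, namely the cAMP response element TGACGTCA, the TEAD motif GGAATG and the TATA box TATAAA. The AP-1 motif TGANTCA and the GLI motif GACCACCCA were searched as well. The sequences are from build GRCm38.p6, on the minus strand at chr12:90739039-90739288 for Dio2, chr8:80058009-80058258 for Hhip and chr16:63864176-63864425 for Epha3.
Dio2: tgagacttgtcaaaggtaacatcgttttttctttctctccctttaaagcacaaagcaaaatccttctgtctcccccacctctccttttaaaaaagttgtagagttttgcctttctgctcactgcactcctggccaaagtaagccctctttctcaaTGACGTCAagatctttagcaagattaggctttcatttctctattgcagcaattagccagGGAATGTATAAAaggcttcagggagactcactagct
Hhip: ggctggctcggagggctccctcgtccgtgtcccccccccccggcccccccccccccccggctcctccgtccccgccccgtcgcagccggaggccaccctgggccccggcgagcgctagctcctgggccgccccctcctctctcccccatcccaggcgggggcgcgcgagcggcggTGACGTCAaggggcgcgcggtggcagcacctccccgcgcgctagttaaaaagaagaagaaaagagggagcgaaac
Epha3: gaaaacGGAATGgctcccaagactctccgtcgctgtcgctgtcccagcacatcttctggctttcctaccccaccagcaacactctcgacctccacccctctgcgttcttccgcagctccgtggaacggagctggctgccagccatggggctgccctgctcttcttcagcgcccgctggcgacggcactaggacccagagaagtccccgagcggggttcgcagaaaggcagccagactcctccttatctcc

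The windows of Dio2 and Hhip each held TGACGTCA, at bases -95 to -88 and -75 to -68 from the start site. Dio2 also held GGAATG at -36 to -31, next to TATAAA at -30 to -25, and Epha3 held GGAATG at -244 to -239. Among 32851 promoter windows of the same length, 1.55% held TGACGTCA, 12.6% held GGAATG, 12.4% held TATAAA, 6.75% held TGANTCA and 0.225% held GACCACCCA. The GC content was 41.6% for Dio2, 76% for Hhip and 62.8% for Epha3. These matches describe the letters of the windows and carry no measurement of binding.

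The levels of the 4 selecting genes chose the cells and are given without a test. Tnfrsf11b (ENSMUSG00000063727, mm10 chr15:54250619-54278484) stood at 139 CPM in the lowest library, 399 in the median library and 586 in the highest among selected fibroblasts, and at 12.8, 51.7 and 301 among the other fibroblasts. Dio2 (ENSMUSG00000007682, chr12:90724552-90738438) ranged from 72.6 to 443 CPM with a median of 312, against 0 to 55.4 with a median of 25.1. Hhip (ENSMUSG00000064325, chr8:79965851-80058006) ranged from 0 to 326 CPM with a median of 159, against 0.665 to 65.4 with a median of 11.4. Epha3 (ENSMUSG00000052504, chr16:63543534-63864175) ranged from 62.5 to 192 CPM with a median of 92.5, against 3.35 to 33.0 with a median of 8.02. Hhip was at 0 in the selected fibroblasts of Smad3SmKO replicate 7 at 18 weeks, a library with 12 selected cells, so it was higher in the selected cells in 15 of 16 libraries, and the other 3 genes were higher in 16 of 16.

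Of the selected fibroblasts, 82.7% held a UMI of Dio2, 62.8% of Tnfrsf11b, 53.4% of Epha3 and 46.3% of Hhip. The most frequent combination was Tnfrsf11b with Dio2 alone, in 1627 cells or 24.5%, followed by Tnfrsf11b, Dio2 and Epha3 in 881 cells (13.2%) and by Dio2 with Hhip in 853 cells (12.8%). All 4 genes were detected in 519 cells (7.80%), whereas Tnfrsf11b with Hhip and neither of the others was found in 170 cells (2.56%). Just outside the rule, 8412 fibroblasts held 1 of the 4 genes and 21004 held none, and just inside it 4161 held 2. More of the 4 genes were detected in deeper cells, from a median of 7702 UMIs in cells with none to 12745 in cells with all 4, and selected fibroblasts had a median of 10138.5 UMIs against 8021 in the other fibroblasts. When each cell was thinned to 2000 UMIs, 2295 fibroblasts, or 6.36%, still met the rule.

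The 4 genes were also looked for outside fibroblasts. A UMI of Dio2 was found in 0.397% of 1007 endothelial cells and 0.976% of 2253 leukocytes, cell types that should lack it, at median depths of 5666 and 6012 UMIs. Hhip was found in 0.298% and 0.311% of those cells, and Epha3 in 0.199% and 0.266%. Of 8950 VSMCs, at a median of 7954 UMIs, 0.715% held Dio2, 0.559% Hhip and 4.26% Epha3. Tnfrsf11b was found in 25.7% of VSMCs, against 1.19% of endothelial cells and 0.976% of leukocytes.

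The 4 genes were not spread evenly over one another among fibroblasts thinned to equal depth. With Tnfrsf11b detected, 30.9% of fibroblasts held Dio2, against 9.40% without it, and the first share was higher in 16 of 16 libraries. Hhip was found in 18.0% of fibroblasts with Epha3 against 5.08% without it, and the first share was higher in 15 of 16 libraries. For Hhip and Tnfrsf11b the shares were closer, with 8.06% of Tnfrsf11b cells holding Hhip against 5.49% of the rest, higher in 10 of 16 libraries. Of the 6 pairs, Hhip and Tnfrsf11b thus had the smallest excess.

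Selected fibroblasts also lay close to one another when the 4 genes were removed. Among the 20 nearest fibroblasts of the same library, by 30 principal components of 2000 variable genes, selected cells made up between 15.8% and 72.6% of the neighbours of a selected cell and between 2.39% and 26.4% of those of another fibroblast. The first value exceeded the library's overall share of selected cells in all 16 libraries, by 1.81 to 5.37 times. The share of selected cells among neighbours was 5.68% for fibroblasts with none of the 4 genes, 22.9% with 1, 51.2% with 2, 70.4% with 3 and 82.2% with all 4. Cells with 1 of the genes lay between the others and the selected cells. Counts were scaled to the same total per cell but not thinned, and depth rose with the number of the 4 genes detected. The part of depth in these shares was not tested.

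**Figure D1:**
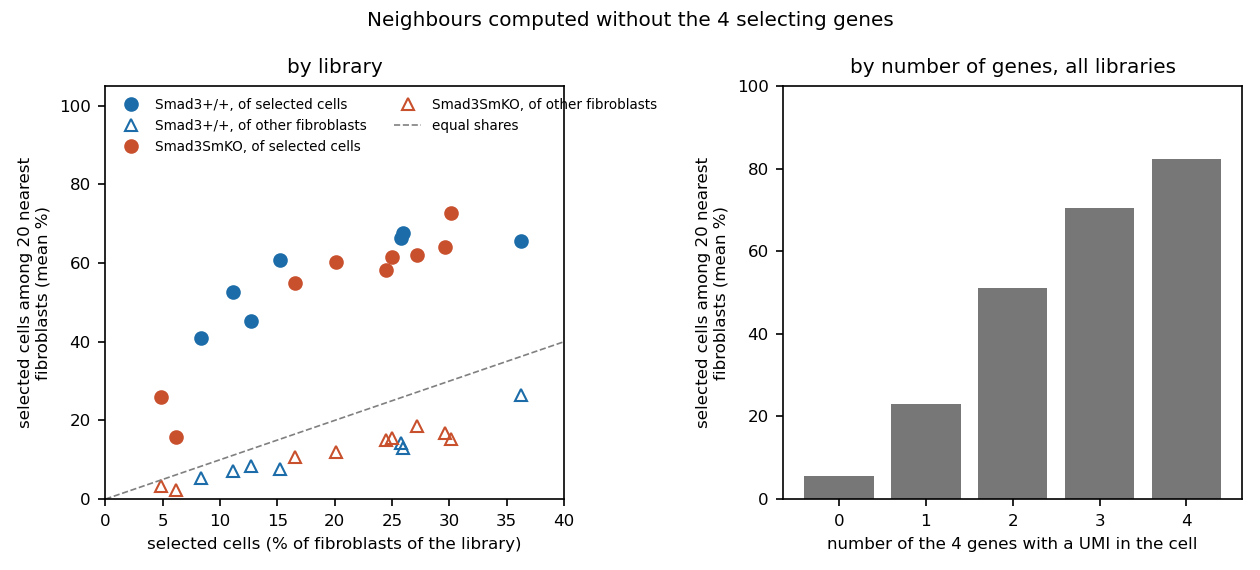
Left, for each of the 16 libraries, the mean percent of selected cells among the 20 nearest fibroblasts (y axis) against their percent among all fibroblasts of the library (x axis), for selected cells (filled circles) and other fibroblasts (open triangles), with the dashed line at equal shares. Right, the same mean percent by the number of the 4 genes detected in a cell, which climbs from 5.68% with none to 82.2% with all 4. Cells were not thinned to equal depth.

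The cells carried the general markers of fibroblasts. None of the 11 tested genes of a fibroblast marker list passed the rule for a difference used below, and the list's median log2 difference was 0.19 beside -0.02 over all tested genes. Col1a1, which encodes a chain of collagen I, stood at 3729 ± 1475 CPM (SD, n = 16) in selected and 2703 ± 1022 in other fibroblasts, and Lum, which encodes the proteoglycan lumican, at 3876 ± 1877 and 3122 ± 2137. Gsn, the actin-severing gelsolin, stood at 5133 ± 2411 against 9940 ± 3834, lower in 16 of 16 libraries with a log2 difference of -0.95.

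To find what else set the selected fibroblasts apart, UMIs were summed per library over selected and over other fibroblasts, and the sums were compared with edgeR's quasi-likelihood test with the library as a block. A gene passed at a Benjamini-Hochberg adjusted p under 0.05 and a difference of at least 1 on the log2 scale. Of 11975 genes tested, 236 (1.97%) passed as higher and 344 (2.87%) as lower in selected fibroblasts, and without the size limit 4697 genes had an adjusted p under 0.05. Fits without the 4 libraries of differing tracer label called 217 higher and 350 lower. The selected cells were the deeper ones in 13 of 16 libraries, and when the rule and the sums were both taken from cells thinned to 2000 UMIs, 77 genes were higher and 156 lower.

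Sfrp4, a secreted inhibitor of Wnt ligands that accompanies the 4 genes as a marker but was not used to select cells, was higher. This marker was named with earlier results of these data known, so its test gives no independent support. It stood at 39.1 CPM in the lowest library, 91.4 in the median library and 230 in the highest among selected fibroblasts, and at 5.70, 29.1 and 56.1 among the other fibroblasts. The ranges overlapped between libraries, yet within each library the selected cells were higher, in 16 of 16. The log2 difference was 2.10 ± 0.16 (SE, adjusted p = 1.52e-09, edgeR).

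The 20 genes with the largest differences that were higher in at least 90% of the libraries included secreted proteins and channel subunits. Prss12 (ENSMUSG00000027978, chr3:123446913-123506597), which encodes the secreted protease neurotrypsin, stood at 16.1, 108 and 169 CPM in the lowest, median and highest library of selected fibroblasts and at 7.33, 16.5 and 35.9 in the others. Its lowest value came from the library with 12 selected cells, and it was higher in 16 of 16 libraries, with a log2 difference of 2.76 ± 0.16 (adjusted p = 2.20e-11, edgeR). Pex5l, an auxiliary subunit of HCN ion channels, stood at 8.07, 65.5 and 135 CPM against 0, 6.795 and 33.6, a difference of 3.10 ± 0.17 (adjusted p = 1.75e-11, edgeR). Ano2, a calcium-activated chloride channel, averaged 22.5 ± 10.8 CPM against 2.78 ± 2.02, a difference of 3.18. Chrna1, the alpha subunit of the muscle acetylcholine receptor, had the largest difference, 3.50, from a low level of 3.01 ± 1.40 CPM against 0.300 ± 0.319.

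Among the rest of the 20, Serpinb6b, an intracellular serine protease inhibitor, stood at 88.6, 111 and 315 CPM in the lowest, median and highest library against 11.4, 24.97 and 77.0. The ranges of Serpinb6b did not overlap between the classes, with a difference of 2.37 ± 0.10, but near-identical relatives of the gene could share its reads. Phex, a membrane endopeptidase needed for normal phosphate balance in bone, averaged 27.7 ± 19.8 against 5.75 ± 7.43 CPM, a difference of 2.60. Bmpr1b, a type I receptor for bone morphogenetic proteins (BMPs), averaged 11.5 ± 3.49 against 2.81 ± 1.95, and Mia, a small secreted protein of cartilage, averaged 9.10 ± 7.90 against 2.86 ± 4.59. The kinase gene Stk32a (difference 2.92), the sorting receptor gene Sorcs1 (2.72), the cadherin genes Cdh18 (2.63) and Cdh12 (2.42) and the chondroitin sulfotransferase gene Chst3 (2.30) were also among them. The list was completed by Hsf2bp, Kcnip4, Trim67, Brinp1, Dgkk, Cpb1 and Brip1, with differences between 2.31 and 3.26. Summed over all libraries, Brip1 (25.3 CPM), Bmpr1b (22.8), Mia (17.9), Kcnip4 (12.4) and Chst3 (10.1) stood higher in VSMCs than in selected fibroblasts. Serpinb6b stood at 106 CPM in VSMCs and 97.2 in endothelial cells. The remaining genes of the 20 were lower in VSMCs than in selected fibroblasts, among them Prss12 (3.09) and Pex5l (0.352).

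The 10 genes furthest in the other direction were lower in at least 15 of 16 libraries. Ptn, which encodes the heparin-binding growth factor pleiotrophin, stood at 0, 41.2 and 126 CPM in the lowest, median and highest library of selected fibroblasts and at 117, 481 and 799 in the others. The ranges touched only between the highest selected library and the lowest of the others, and the difference was -3.32 ± 0.22 (adjusted p = 1.87e-10, edgeR). Cxcl14, a chemokine, stood at 0, 4.62 and 101 CPM against 9.94, 144 and 703, a difference of -4.47 ± 0.30. Slc38a5, an amino acid transporter, had the largest difference, -4.95, from 3.72 ± 2.66 CPM in the others to 0.115 ± 0.249. Myoc, which encodes myocilin, averaged 9.08 ± 8.71 against 62.1 ± 45.4. Hoxd8, Ifi205, Clca3a2 and Aim2 were also among the 10, with differences between -3.67 and -2.81, and Ifi205 has close relatives that could share its reads.

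**Figure D2:**
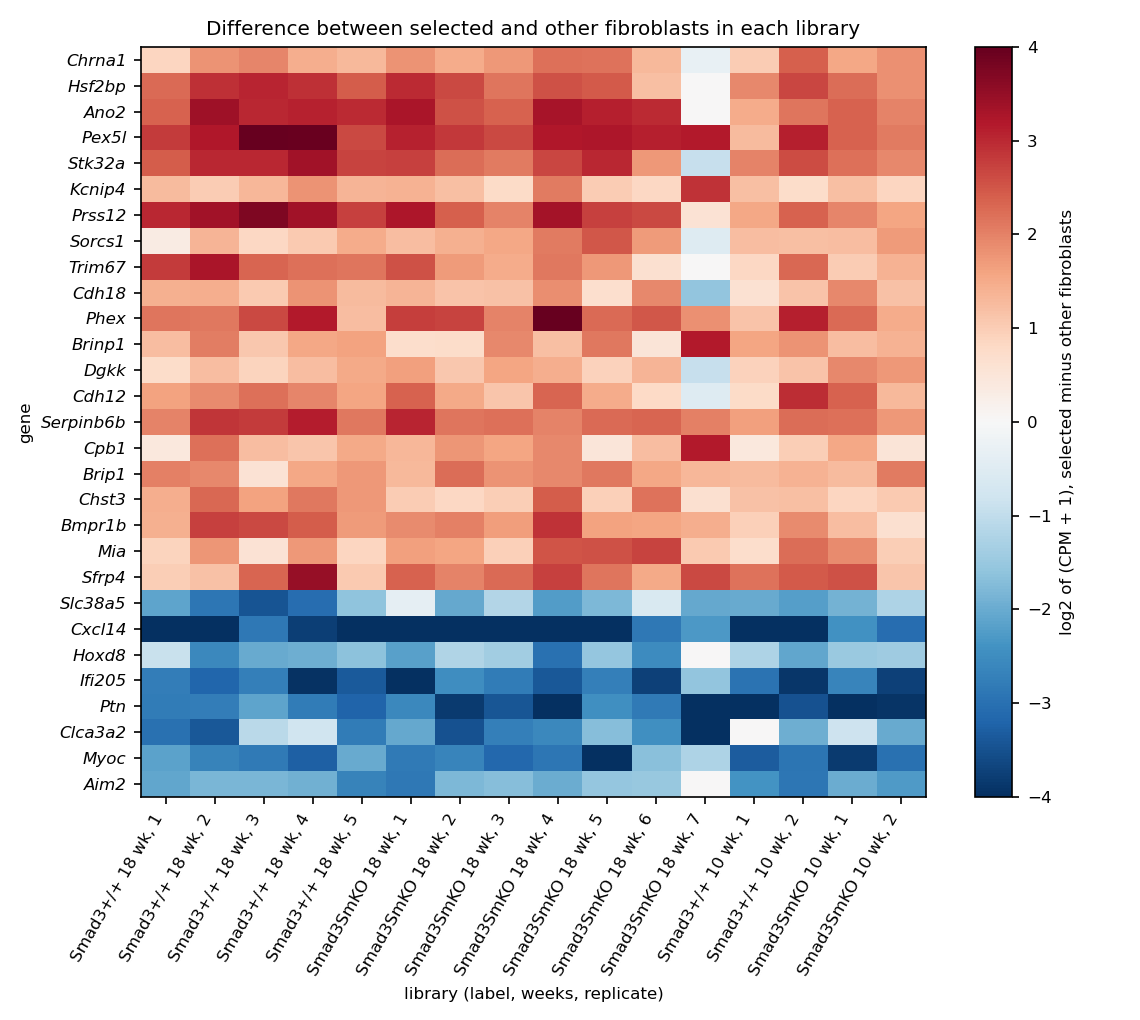
Difference in each library (columns) between selected and other fibroblasts for the 20 genes higher, Sfrp4 and 8 of the 10 genes lower, as log2 of (CPM + 1) with colours clipped at 4 in both directions. The sign is shared by at least 15 of 16 libraries for every gene drawn.

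Levels of many of these genes moved stepwise with the number of the 4 selecting genes detected, as a description over cells of all libraries. Prss12 stood at 8.23 CPM in fibroblasts with none of the 4, 31.8 with 1, 90.3 with 2, 137 with 3 and 181.1 with all 4. Sfrp4 stood at 18.9, 38.9, 74.0, 123 and 192 CPM in the same order, and Pex5l at 3.45, 13.3, 42.1, 77.2 and 126. Ptn ran the other way, at 602, 344, 73.7, 21.6 and 9.35 CPM, and Cxcl14 stood at 289, 71.6, 10.7, 5.91 and 1.04. Not every gene kept its direction at the last step, from 3 genes to all 4. There Chst3 fell from 5.64 to 3.86 CPM, Cpb1 from 5.32 to 4.01 and Bmpr1b from 13.4 to 12.5, and Hoxd8 rose from 0.0447 to 0.148. Depth per cell rose over the same steps, and CPM values are relative to that depth.

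**Figure D3:**
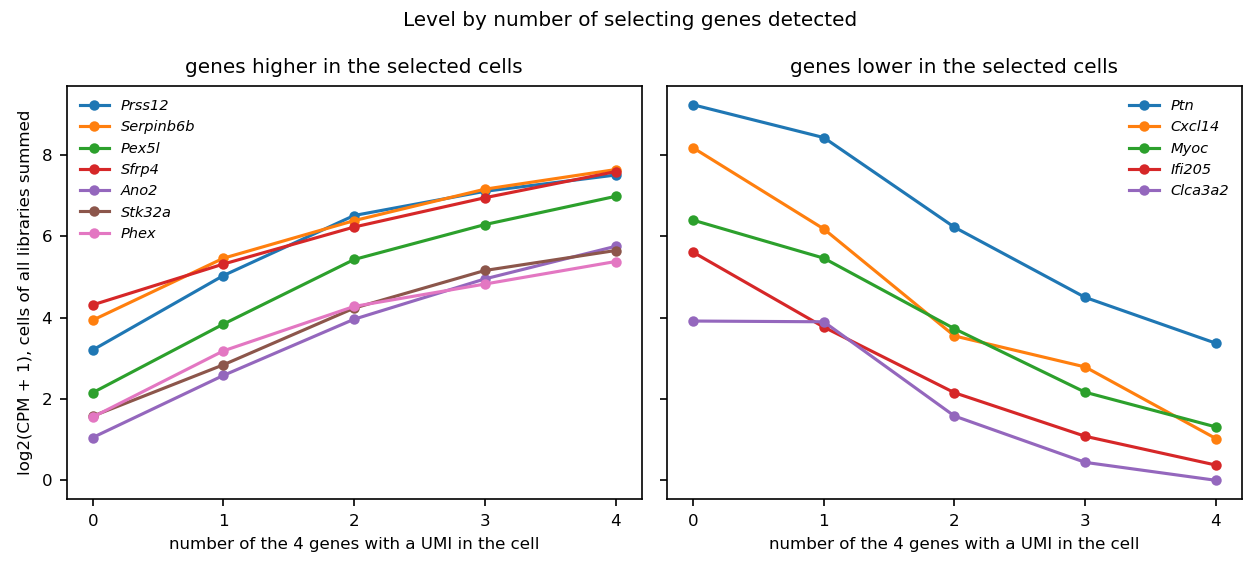
Level, as log2(CPM + 1) of the summed cells of all libraries, of 7 genes higher (left) and 5 genes lower (right) in selected fibroblasts, by the number of the 4 selecting genes with a UMI in the cell (x axis). Each line on the left is higher at every further gene and each line on the right is lower.

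Of the other genes that passed, the 5 named next were chosen after their values were seen. Cst3, which encodes the secreted protease inhibitor cystatin C, stood at 10726, 23424 and 44542 CPM in the lowest, median and highest library of selected fibroblasts and at 2795, 8610 and 22894 in the others. The ranges overlapped, and Cst3 was higher in 16 of 16 libraries by 1.51 ± 0.08 (adjusted p = 4.61e-12, edgeR). Ctgf, a matricellular growth factor also called Ccn2, stood at 2949, 4436 and 7758 CPM against 601, 1700 and 2750, so its lowest selected library was above the highest of the others. Its difference was 1.59 ± 0.09 in 16 of 16 libraries. Ntf3, which encodes neurotrophin-3, averaged 116 ± 48.4 against 30.5 ± 23.2 CPM, a difference of 2.16. F3, tissue factor, averaged 743 against 255 CPM, a difference of 1.70, and Smoc1, a calcium-binding matrix protein that restrains BMP signalling, averaged 270 ± 50.1 against 86.6 ± 43.0, a difference of 1.81.

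Genes of elastic fibres moved in both directions, with 2 higher and 2 lower of 17 tested and a median difference of 0.15. Eln, which encodes elastin, stood at 298, 1758 and 2915 CPM in the lowest, median and highest library of selected fibroblasts and at 141, 415 and 1242 in the others. It was higher in 16 of 16 libraries, by 1.90 ± 0.13 (adjusted p = 3.99e-10, edgeR), and Fbln5, which encodes the elastin-binding fibulin-5, averaged 1159 ± 444 against 548 ± 295 CPM, a difference of 1.20. Efemp1, which encodes fibulin-3, averaged 67.9 ± 22.0 against 161 ± 69.6 and was lower by 1.21. The fourth, Emilin2, was lower by 1.03.

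Of 30 collagen genes tested, 4 were higher and 1 lower, with a median of 0.16. All 4 were chains of collagen IV, the network collagen of basement membranes: Col4a3 averaged 77.8 ± 34.9 against 32.0 ± 19.4 CPM (difference 1.38), Col4a4 123 ± 36.3 against 65.1 ± 32.7 (1.03), Col4a5 156 ± 80.0 against 74.7 ± 42.7 (1.11) and Col4a6 62.8 ± 22.0 against 28.1 ± 14.4 (1.28), each higher in 16 of 16 libraries. Among 11 other basement membrane genes the laminin chain gene Lamc3 was higher, at 158 ± 56.0 against 45.1 ± 31.2 CPM (difference 2.05). Lama4, Lamb1 and Nid2 were among those lower, by 1.46, 1.37 and 1.24, and the median of the 11 was -0.48. The selected fibroblasts thus held more RNA of some basement membrane chains and less of others.

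Among 21 proteoglycan and hyaluronan genes, 1 was higher and 4 were lower, with a median of 0.15. Fmod, which encodes the collagen-binding fibromodulin, averaged 205 ± 86.8 against 78.9 ± 53.7 CPM, a difference of 1.58. Vcan, which encodes versican, averaged 172 ± 98.8 against 339 ± 143 and was lower by 1.02, as were Epyc by 1.60 and the hyaluronan synthase genes Has1 by 1.34 and Has2 by 1.48. Of 21 protease and inhibitor genes, Adamts8 (difference 1.94) and Timp4 (1.72) were higher and Adamts4 (-1.06) and Adamts19 (-2.06) lower.

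Secreted Wnt inhibitors also split, with 3 higher and 2 lower of 8 tested and a median of 0.48. Besides Sfrp4, Sfrp2 averaged 283 ± 228 against 108 ± 56.5 CPM (difference 1.32) and Sost, which encodes sclerostin, 46.1 ± 43.7 against 29.5 ± 38.0 (1.38). Sfrp1 averaged 224 ± 85.8 against 561 ± 205 and was lower by 1.29, and Wif1 averaged 82.8 ± 83.4 against 221 ± 157 and was lower by 1.55. Of 9 Wnt ligand genes none was higher and Wnt10b, Wnt11 and Wnt16 were lower, by 1.68, 1.25 and 1.82. Axin2 and Lef1, which canonical Wnt signalling is known to induce, were lower by 1.24 and 1.93, from 9.39 and 3.803 CPM in the other fibroblasts. In this list of 11 Wnt target and receptor genes, Rspo1 was also lower and the receptor gene Lgr6 was higher by 1.68.

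For the BMP and TGF-beta list, 2 of 32 genes were higher and 3 lower, with a median of 0.16. Ltbp2, a latent TGF-beta binding protein of microfibrils, averaged 290 ± 73.5 against 111 ± 123 CPM (difference 1.79), and the ligand gene Gdf6 was higher by 1.18. Bmper, Bmp5 and Bmp6 were lower by 2.39, 2.67 and 1.69. Bmp4, another ligand gene, averaged 134 ± 21.0 against 70.1 ± 25.7 CPM in 16 of 16 libraries, a difference of 0.99 that lay just under the size limit (adjusted p = 2.71e-08, edgeR). Of 14 FGF genes none was higher and Fgf9, Fgf10 and Fgf18 were lower, by 1.23, 2.10 and 1.08, and Igfbp3, which encodes a carrier of insulin-like growth factors, was the 1 gene of 8 that passed in its list, lower by 2.14.

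The lists drawn up around the 4 selecting genes held 1 gene that passed, the ephrin-B gene Efnb2. In the hedgehog list none of the 12 genes tested besides Hhip passed and the median was -0.09. Ptch1, the receptor that hedgehog signalling induces, averaged 108 ± 53.8 against 59.8 ± 40.4 CPM, a difference of 0.97 in 16 of 16 libraries (adjusted p = 8.29e-08, edgeR). Boc, a hedgehog co-receptor, differed by 0.79, and Gli1, another induced gene, by 0.30. In the thyroid hormone list none of 11 passed, with a median of 0.21. Slc16a10, an amino acid and thyroid hormone transporter, differed by 0.87, Hr, a nuclear co-repressor that thyroid hormone induces, by 0.72 and the receptor gene Thrb by 0.45, from 22.9 ± 7.49 against 17.7 ± 6.96 CPM. None of 8 Eph receptor genes passed, with Ephb3 at 0.72 and Epha7 at -0.75, and of 6 ephrin genes Efnb2 was higher by 1.08. The ephrin-A genes Efna5, Efna2, Efna1 and Efna4 differed by 0.85, 0.45, -0.35 and -0.66 and did not pass. In the list around osteoprotegerin 3 genes that the rule did not use were tested, the receptor genes Tnfrsf10b and Tnfrsf23 and the adaptor gene Traf6, and none passed. The genes of RANK ligand and TRAIL did not pass the filter on low counts and were not tested.

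Genes of skeletal tissues were counted in 2 lists. In the cartilage list, 3 of 10 were higher and 1 lower, with a median of 0.47. Comp, a pentameric matrix protein of cartilage and tendon, averaged 845 ± 340 against 380 ± 169 CPM in 16 of 16 libraries (difference 1.20), and the matrilin genes Matn3 and Matn4 were higher by 2.92 and 1.08, whereas Hapln1 was lower by 1.14. Sox9, the transcription factor that directs cartilage formation, averaged 82.7 ± 21.5 against 133 ± 46.1 CPM, a difference of -0.69 that did not pass. Of 8 ossification and calcification genes, Enpp1, which makes the mineralization inhibitor pyrophosphate, was higher, at 39.9 ± 10.1 against 21.1 ± 5.54 CPM (1.06). Mgp, the calcification inhibitor matrix Gla protein, averaged 32248 ± 9780 against 19739 ± 9318 CPM and differed by 0.79, higher in 16 of 16 libraries. Runx2, the master regulator of bone formation, stood at 8.85 ± 2.69 against 6.99 ± 1.93 CPM, a difference of 0.42, and Alpl, the alkaline phosphatase gene, at 42.1 ± 25.2 against 57.2 ± 42.1, a difference of -0.33, and neither passed.

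Hox genes and other transcription factors that mark position in the embryo were counted next. Of 8 Hox genes tested, 5 were higher and 1 lower, with a median of 1.08. Hoxa3 stood at 8.99, 21.2 and 36.8 CPM in the lowest, median and highest library of selected fibroblasts and at 3.24, 6.56 and 26.3 in the others, higher in 16 of 16 libraries by 1.57 ± 0.15 (adjusted p = 2.11e-08, edgeR). Hoxb3 (difference 1.35), Hoxa2 (1.22), Hoxb2 (1.11) and Hoxb4 (1.06), all from the anterior end of their clusters, were the others, and Hoxd8, from a more posterior position, was the gene that was lower. Of 34 transcription factor and position genes, 9 were higher and 4 lower, with a median of 0.16. Dlx5 and Dlx6 were higher by 1.99 and 1.73, Nr2f2 (also called COUP-TFII) by 1.44 from 188 ± 169 to 447 ± 270 CPM, Meox2 by 1.20 and Prrx2 by 1.15. Tfap2b, Tnmd, Foxc2 and Tbx2 were the other 4 that were higher. The 4 that were lower were Tbx5 by 2.60, Tbx20 by 2.06, Gata4 by 2.00 and Tcf21 by 1.42, the last from 328 ± 122 to 124 ± 56.1 CPM. Gata6, Tbx18 and Isl1, also factors of the developing heart, differed by 0.42, 0.25 and -0.04 and did not pass.

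Of 19 chemokine and cytokine genes, none was higher and 7 were lower in selected fibroblasts, with a median of -0.89. Besides Cxcl14 these were Ccl11 (difference -2.37), Cxcl5 (-1.77), Ccl8 (-1.62), Tslp (-1.62), Il33 (-1.15) and Ccl7 (-1.10). Il33, an alarmin of barrier and stromal cells, averaged 92.5 ± 38.4 against 231.8 ± 153 CPM. In a list of adventitial progenitor genes Dpp4 and Ly6c1 were lower, with differences of -2.16 and -1.502, and Pi16 and Cd34 differed by -0.07 and -0.32. C4b was the 1 gene of 13 complement genes that passed, lower by 1.01. None of 9 interferon-induced genes, 4 cell cycle genes or 20 genes known to respond to tissue digestion passed, and Fos differed by 0.25 and Jun by 0.09.

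**Figure D4:**
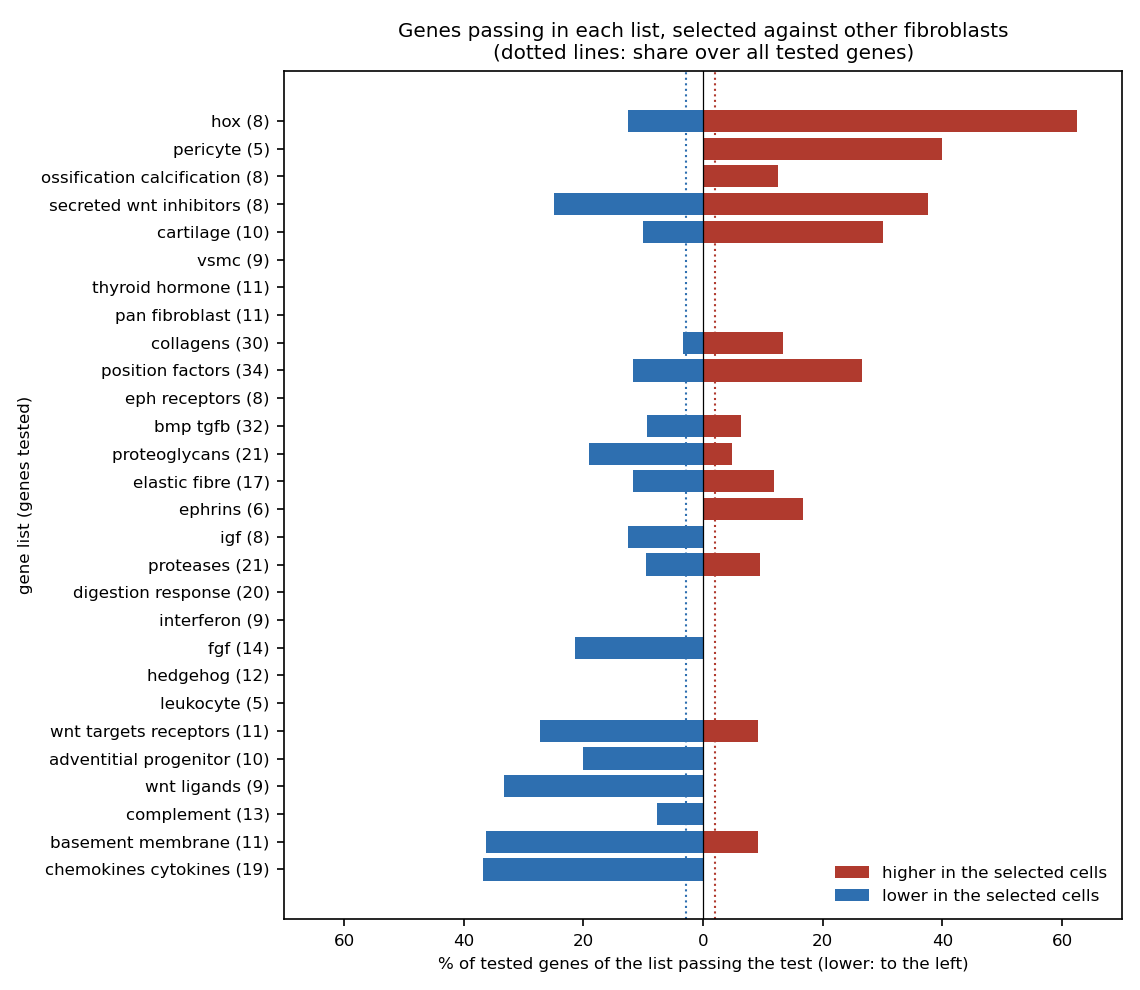
Percent of the tested genes (number in brackets) of each list with at least 5 tested that were higher (red, to the right) or lower (blue, to the left) in selected fibroblasts, sorted by the list's median difference. The dotted lines mark the shares over all tested genes, 1.97% higher and 2.87% lower, and the longest bars drawn are those of the Hox genes to the right and of the chemokines and cytokines to the left.

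Markers of other cell types were present in both classes, and their part in the results above was not tested. The 10 VSMC markers summed to between 716 and 9431 CPM (median 2283) in selected fibroblasts and between 561 and 12158 (median 2036) in the others, and none of the 9 tested passed. Of the pericyte list, Abcc9 (difference 1.10) and Cspg4 (1.00) of 5 tested were higher, and the list's sum was higher in 15 of 16 libraries, at 169 to 670 against 120 to 494 CPM, while the pericyte markers Vtn and Higd1b stood at 0.0415 and 0.0830 CPM in selected cells. Endothelial genes summed to 8.07 to 147 against 5.99 to 107 CPM, with Egfl7 and Emcn lower, leukocyte genes to 12.7 to 268 against 7.76 to 249 with none of 5 passing, and heart muscle genes to 4.80 to 262 against 10.7 to 229. Of the Schwann cell list Cdh19 was lower by 2.01 and Foxd3 was at 0 in selected cells, and the mesothelial markers Msln and Lrrn4 were at 0 as well. A high doublet score marked 3.29% of selected and 3.79% of other fibroblasts, and 4.21% and 4.62% held at least 2 markers of other types. In the 7 libraries with GFP, 0.604% of selected fibroblasts (median 6110 UMIs) held a UMI of the VSMC tracer, against 0.721% of other fibroblasts, 1.10% of endothelial cells (median 5042.5 UMIs) and 15.4% of VSMCs (median 7276.5 UMIs).

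Each selected cell could also belong to another group of fibroblasts defined in the same way by other genes. The group holding at least 2 of Hsd11b1, F3 and Vegfd took in 58.8% of the selected fibroblasts and 31.5% of the others, and 29.7% of that group were selected cells. The Foxd1/Col11a1 group took in 2.62% of the selected fibroblasts, which were 21.1% of that group, and the Has1/Spon2/Cxcl5 group took in 1.65%, which were 3.91% of it. The 3 groups were then compared with the selected fibroblasts after cells belonging to both were left out.

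For the comparison with the Hsd11b1/F3/Vegfd group 2737 selected cells remained, those outside that group. In them 217 of 10348 genes (2.1%) were higher and 254 (2.45%) lower, over 15 libraries. Spp1, which encodes osteopontin, averaged 719 ± 758 against 44.7 ± 47.9 CPM (difference 4.00), the tendon and cartilage gene Chad 156 ± 115 against 16.3 ± 15.1 (3.46) and the water channel gene Aqp1 218 ± 126 against 28.7 ± 17.4 (2.91). Sfrp1 averaged 86.1 ± 54.2 against 1028 ± 257 and was lower by 3.70 in 15 of 15 libraries. These levels are not those of all selected fibroblasts, in which Sfrp1 averaged 224 ± 85.8 and Chad 83.2 ± 54.0 CPM. Spp1 averaged 605 ± 973 CPM in all selected and 856 ± 2657 in all other fibroblasts and did not pass. Against the Foxd1/Col11a1 group, 201 of 8505 genes (2.36%) were higher and 124 (1.46%) lower, over 15 libraries. Ptn averaged 51.1 ± 37.0 against 2104 ± 1061 CPM (-5.54) and Tcf21 119 ± 48.0 against 673 ± 149 (-2.51), while Rgs5 (5.16) and Aqp1 (4.67) were higher. Against the Has1/Spon2/Cxcl5 group, 601 of 10038 genes (5.99%) were higher and 305 (3.04%) lower, over 14 libraries. Fmod (5.57), Ntf3 (5.21) and Lamc3 (4.97) were higher, and Cxcl14 (-6.32), Tnfaip6 (-3.72) and Ifi205 (-4.87) lower. The selected cells were in part the same in all 3 comparisons.

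Within the selected fibroblasts, cells with Hhip and cells with Tnfrsf11b were described without a test, since the split was chosen after the values were seen. Over all 16 libraries, 1801 cells held Hhip without Tnfrsf11b and 2903 Tnfrsf11b without Hhip. Over the 15 libraries that held both kinds, of 5511 genes 38 were at least 2 times higher with Hhip and 37 with Tnfrsf11b in at least 90% of the libraries. Smoc2, a matricellular protein, averaged 680 ± 201 CPM with Hhip and 177 ± 50.0 with Tnfrsf11b, Scara5, a scavenger receptor, 160 ± 76.1 and 36.9 ± 18.3, and the chemokine gene Cxcl12 855 ± 345 and 348 ± 133. Sfrp4 averaged 187.4 ± 110 and 53.9 ± 28.5, so this marker was carried more by the Hhip cells. Spp1 averaged 34.0 ± 51.5 CPM with Hhip and 715 ± 748 with Tnfrsf11b, Wif1 16.6 ± 9.81 and 160 ± 179, the transcription factor gene Tbx20 3.99 ± 3.35 and 56.0 ± 57.0, and Thbs1, which encodes thrombospondin-1, 33.6 ± 49.5 and 186 ± 124. The direction of Smoc2, Scara5 and Cxcl12 was shared by 15 of 15 libraries and that of Spp1 and Tbx20 by 14.

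The comparison between genotype labels at 18 weeks asked whether Smad3 deletion aimed at VSMCs went with a change in these fibroblasts. After thinning to 2000 UMIs per cell, selected cells made up 2.34%, 4.19%, 1.64%, 7.68% and 8.76% of fibroblasts in replicates 1 to 5 of Smad3+/+, and between 1.02% and 10.1% with a median of 6.21% in the 7 libraries labelled Smad3SmKO. The groups overlapped over nearly their whole range. The means were 4.92% ± 3.18 (SD, n = 5) and 6.09% ± 3.65 (n = 7), a difference of 1.17 percentage points (two-sided exact permutation test, p = 0.558, 792 arrangements). Without thinning the means were 17.6% ± 7.94 and 20.0% ± 10.5 (n = 5 and 7, exact permutation p = 0.652). The library with the fewest fibroblasts, Smad3SmKO replicate 7, held 12 selected cells among 196 (6.12%, 95% Wilson interval 3.54% to 10.4%, counting error only). A share within fibroblasts moves with the number of other fibroblasts as well as with that of the selected ones.

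The direction differed between digestion times. Among libraries digested for 30 min the share was 2.34%, 4.19% and 1.64% in Smad3+/+ and 6.02%, 6.21%, 9.28% and 10.1% under the Smad3SmKO label, so the groups did not overlap. The means were 2.72% ± 1.32 (n = 3) and 7.90% ± 2.09 (n = 4), a difference of 5.18 points (two-sided exact permutation p = 0.0286, the smallest that 35 arrangements can give). That test did not hold the batch fixed, and within batches 1, 2 and 3 the labels can be arranged in too few ways for an exact p under 0.05. Without any 1 of these 7 libraries the exact permutation p was 0.0667 to 0.133, and such designs cannot go below 0.05. Digestion time, batch and tracer label cannot be told apart at 18 weeks, since each batch had 1 digestion time, every 30 min library is labelled without a tracer and every 60 min library with Myh11-GFP. Among libraries digested for 60 min the share was 7.68% and 8.76% in Smad3+/+ against 8.60%, 1.42% and 1.02%. The difference was -4.54 points (exact permutation p = 0.3, 10 arrangements). The 1.02% came from 2 selected cells left after thinning in Smad3SmKO replicate 7, and without that library the difference was -3.21 points. Within batches 1, 2 and 3, all of 30 min, the label Smad3SmKO was higher by 5.41, 4.39 and 5.90 points, within batch 6 it was lower by 6.81, and batch 5 held no Smad3+/+ library. The difference between the 30 and the 60 min effects was 9.72 points (exact permutation within digestion times, p = 0.0229), a comparison made after the values were seen that gave p = 0.0571 without Smad3+/+ replicate 5. Without the libraries of differing tracer label the 60 min libraries held no Smad3+/+ mouse, so that difference could not be computed, and the overall difference was 3.37 points (exact permutation p = 0.167). At 10 weeks the shares were 17.7% and 5.16% in Smad3+/+ and 6.97% and 13.9% under Smad3SmKO, and 2 against 2 libraries cannot reach an exact p under 0.05.

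**Figure D5:**
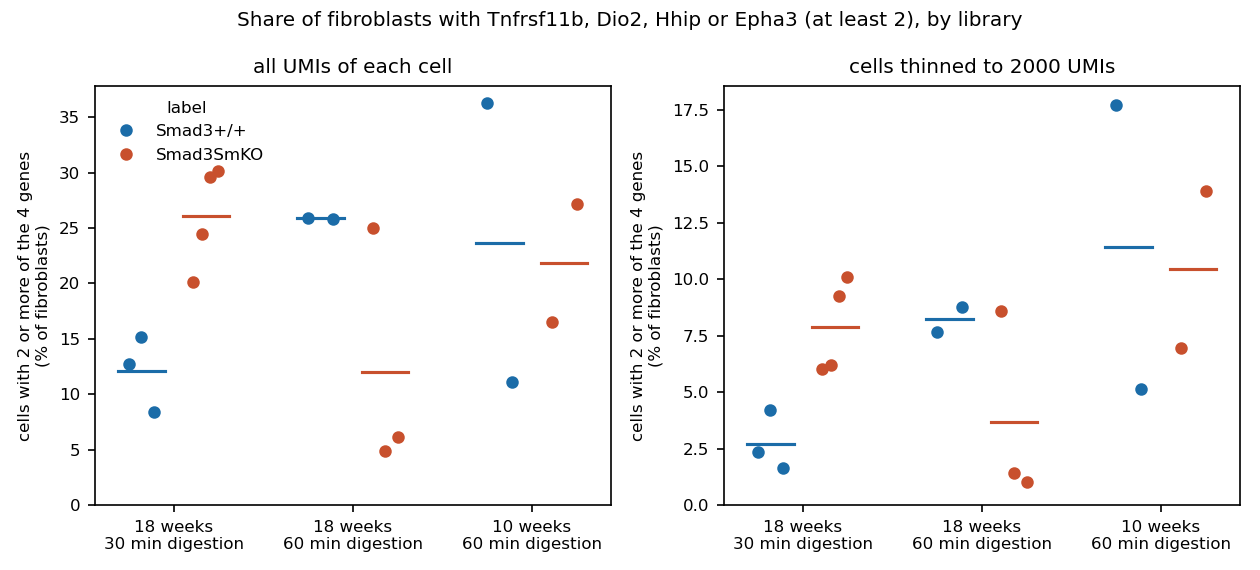
Selected cells as a percent of the fibroblasts of each library (points) with the mean of each group (bars), from all UMIs of each cell (left) and after thinning to 2000 UMIs (right), by weeks after deletion and digestion time. At 18 weeks the groups are apart after 30 min of digestion, with 1.64% to 4.19% against 6.02% to 10.1% after thinning. The 60 min groups overlap after thinning. From all UMIs they are apart the other way, with 25.81% and 25.94% in Smad3+/+ against 4.85% to 24.97% under the Smad3SmKO label.

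Levels within the selected fibroblasts were compared between the labels with edgeR's quasi-likelihood test with the batch as a term. None of 11504 genes passed at an adjusted p under 0.05 (0%), 450 (3.91%) had an unadjusted p under 0.05, and DESeq2 called 9 genes. Among the other fibroblasts edgeR called 0 of 13758 genes, with 224 (1.63%) at an unadjusted p under 0.05, and DESeq2 called 2, Tnfsf15 and Hcar2. The test of a difference in the effect between both classes gave 0 of 12819 genes, with 500 (3.9%) at an unadjusted p under 0.05, and DESeq2 called 0. The 9 genes called by DESeq2 in selected fibroblasts were Postn, Slc25a34, Fam83a, Pgf and Cox4i2, lower by 0.73, 1.23, 1.31, 1.14 and 0.67, and Fst, Bdnf, Csmd1 and Mtss1, higher by 1.28, 1.25, 1.70 and 1.47 under the Smad3SmKO label. Bdnf, which encodes brain-derived neurotrophic factor, also passed in edgeR when selection needed 3 of the 4 genes, with a difference of 1.95, as did Tbx20 at -2.94.

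The selecting genes themselves, whose levels in these cells are in part set by the rule, are given without a test. Tnfrsf11b averaged 244 ± 103 CPM in Smad3+/+ and 426 ± 127 under the Smad3SmKO label at 18 weeks, a log2 difference of 0.75 ± 0.32 (SE), with a higher level in 3 of 4 batches that held both labels. Epha3 averaged 79.7 ± 16.9 and 95.1 ± 30.6 CPM (0.50 ± 0.15), Dio2 296 ± 97.2 and 270 ± 112 (0.11 ± 0.39), and Hhip 153 ± 50.2 and 108 ± 99.5 (-0.43 ± 0.46). Sfrp4 averaged 70.1 ± 19.9 and 113 ± 56.9 CPM, a difference of 0.62 ± 0.21 that did not pass (adjusted p = 1.00, edgeR), although it was higher in 4 of 4 batches. Of the 20 genes higher in selected fibroblasts, 13 were higher and 7 lower under the Smad3SmKO label, with a median of 0.16 beside -0.0013 over all tested genes, and none passed. In the other fibroblasts 16 of these genes were tested, and 9 were higher under that label, with a median of 0.20. In the selected fibroblasts 3 of the 20 had an unadjusted p under 0.05 (edgeR), beside 3.91% of all tested genes. They were Mia (1.16), Sorcs1 (0.96) and Trim67 (-1.35). Smad3 itself stood at 27.5 ± 3.08 CPM in Smad3+/+ and 23.4 ± 7.19 under the Smad3SmKO label in these cells.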

How the data were processed

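Droplet libraries (10x Genomics 3' chemistry, version 3) of 16 mice were used. The deposited files hold raw UMI counts per gene and barcode, made by the authors with Cell Ranger on mm10. The labels name Cell Ranger 6, whereas the file headers give 4.0.0. Kept barcodes had between 600 and 6000 genes, between 2000 and 50000 UMIs (limits excluded) and a mitochondrial share below 25%. Doublets were scored with Scrublet in scanpy 1.11.5 and left in, and an alternative removed them. The members and the gene lists were chosen with earlier results of these data known. Labels carry no replicate numbers, so libraries were numbered in accession order. Nothing was imputed, and libraries with under 10 cells of a class were left out of a comparison.

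Counts were summed per library and class and fitted with edgeR 4.0.16 (R 4.3.3, TMM, filterByExpr, quasi-likelihood, Benjamini-Hochberg), with the library as a block between classes and the batch as a term between genotype labels. pydeseq2 0.5.4 gave the DESeq2 alternative. Named genes were the 20 higher and 10 lower genes of largest fold change that passed and moved the same way in at least 90% of libraries. Some genes are not reported here. Shares were taken after thinning each cell to 2000 UMIs and compared with exact permutation tests (scipy 1.17.1). Scripts were tested on simulated data. Promoters were matched for 3 of 4 genes in the RefSeq promoter set used.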

Additional observations from a re-analysis of the deposited data

Results flagged for a closer look

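The genotype difference in the share of selected cells at 18 weeks differed between digestion times, by 9.72 percentage points after thinning (exact permutation within digestion times, p = 0.0229) and by 27.9 points without thinning (p = 0.0171, exact permutation). These tests did not hold the batch fixed, and digestion time, batch and tracer label cannot be told apart at 18 weeks. Kcnip4, a potassium channel-interacting protein, stood at 8.07 CPM in the selected fibroblasts of Smad3SmKO replicate 7 at 18 weeks, far from the other libraries of its group by Dixon's test. That library held 12 selected cells, and of 34 such groups tested chance marks about 1 in 20.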

How the results depend on the processing

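Against the other fibroblasts, 393 genes were higher and 956 lower with no filter on low counts, 77 and 156 after thinning, 435 and 729 with DESeq2, and 219 to 249 and 332 to 365 when single libraries were left out. All 20 genes higher, all 10 lower and Sfrp4 kept their call in every alternative that tested them. Not every gene was tested in each, with 15 alternatives for Chrna1, 16 for Slc38a5 and 25 for Prss12. Between genotype labels, selected fibroblasts gave 210 genes with no filter, 2 with 3 selecting genes required, 9 with DESeq2 and 0 in each fit without 1 library. The other fibroblasts gave 2 with DESeq2. The difference between classes gave 1 with no filter (Ighg2c) and 0 to 1 without single libraries (Igkc, without Smad3+/+ replicate 3). The cause was not tested. The share differed by 5.18 points at 30 min, by -4.54 at 60 min, and by 0.35 to 2.13 without single libraries, and the difference between digestion times was 8.39 to 12.2 points, with 9.18 (p = 0.0571, exact permutation) without Smad3+/+ replicate 5.

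Signs that turned were those of genotype effects that passed no test (log2, the last range of each gene without single libraries). Dio2 in selected cells was -1.24 at 60 min, -0.11 with no batch term and -0.19 to 0.57. In other fibroblasts Tnfrsf11b was -0.014 without the libraries of differing tracer label and -0.014 to 0.86, and Dio2 was -1.90 at 60 min. Hhip was -0.033 without cells holding other markers, -0.13 with 3 selecting genes, -0.064 at 5000 to 20000 UMIs, -2.04 at 60 min and -0.35 to 0.66. For the difference between classes, Tnfrsf11b was 0.036 with 3 selecting genes, 0.028 at 5000 to 20000 UMIs, 0.10 with at least 20 cells, 0.46 at 30 min, 0.39 with a batch effect per class and -0.57 to 0.13. Dio2 was 0.42 at 60 min. Epha3 was 0.078 at 5000 to 20000 UMIs, 0.37 at 30 min, 0.016 with a batch effect per class, 0.48 without the libraries of differing tracer label and -0.22 to 0.17.

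Libraries of different genotype labels were not paired by replicate, because the labels carry no replicate numbers. The batch, which held both genotype labels in 4 cases at 18 weeks, was a term in the genotype fits instead. For the share at 18 weeks, permuting labels within batches gave p = 0.583 (exact permutation, 36 arrangements). Each library is 1 mouse, and 12 cells in 1 library limit the low genes there.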
